A study of Mus musculus with 8 samples.

Results

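The genes described here encode the subunits of respiratory complexes II, III, IV and V that are carried in the nucleus, together with cytochrome c. They were taken by symbol among protein-coding genes: Sdha to Sdhd for complex II, Cyc1 and symbols starting with Uqcr for complex III, Cycs for cytochrome c, symbols starting with Cox4, Cox5, Cox6 or Cox7 and Cox8a for complex IV, and symbols starting with Atp5 for complex V. Cox7a1 and Cox8b were left out. The rule found 46 of the 34866 genes of the table: 4 of complex II, 9 of complex III, 1 for cytochrome c, 15 of complex IV and 17 of complex V. One of the 17, Atp5s, is known as a coupling factor that is no structural subunit. At least 1 subunit, listed under the older symbol Usmg5, fell outside the rule, and other subunits whose symbols do not match may be missing too.

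Respiratory complexes sit in the inner mitochondrial membrane. Complex II oxidises succinate and passes electrons to ubiquinone, complex III passes them on to cytochrome c, and complex IV hands them to oxygen. Complexes III and IV pump protons, and complex V, the ATP synthase, uses the proton gradient to make ATP. All of complex II and most subunits of the others are nuclear genes, while cytochrome b of complex III, the catalytic core of complex IV and part of the membrane portion of complex V are encoded in mitochondrial DNA. In white fat the chain supplies ATP for lipid synthesis and storage.

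RNA came from the epididymal white fat of male mice, and 4 libraries were made for each of 2 genotypes. Controls carried Aromatase flox/flox, in which the aromatase gene Cyp19a1 is flanked by loxP sites, and knockouts carried aP2-Cre;Aromatase flox/flox, so both groups share the floxed gene and only the knockouts carry Cre. The aP2 promoter is that of Fabp4, a fatty-acid binding protein gene used to drive Cre in fat cells and also active in macrophages, so aP2-Cre does not act in adipocytes alone. No group with Cre and unfloxed aromatase was analysed here, and ages are not given in the labels. The stated aim was to find target genes of Cyp19a1 in fat that act in phosphorus metabolism. The labels do not say whether the libraries of a group come from separate animals, so p-values measure the spread between these libraries, which may be technical.

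Libraries held 1538427 to 3053565 estimated counts, and control replicate 4 was the smallest. Cyp19a1 itself had 2, 1, 5.02 and 1 estimated counts in the controls and 0, 4, 2.08 and 1.59 in the knockouts, replicates 1 to 4, too few to check the deletion. The adipocyte markers were present in every library, with a summed level of 73070 to 94040 CPM in the controls and 62820 to 89060 CPM in the knockouts. CPM is a count scaled to the size of its library, here after TMM scaling, a correction for differences in RNA composition. Epididymal markers summed to at most 8.534 CPM in any library, and 4 of the 6 were at 0 in all libraries.

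The promoters of 5 members are shown first, as examples of members that carry a short word known from respiratory genes. All 5 are among the members with the smallest edgeR p in the genotype comparison below, with log2 fold changes from -0.70 to -0.20. Other members carry a word within the same 120 bases before the start and are not printed. They include Sdhb, Uqcr11, Uqcrh, Cox6b1, Cox6a1, Atp5k, Atp5e and Atp5j, with log2 fold changes from -0.36 to -0.03. The printed 5 therefore do not represent all members that hold a word. Words for 4 transcription factors were searched on both strands of RefSeq's windows from 250 bases before to 50 bases after the start site (GRCm38.p6), which were found for 35 of the 46 members. The words were GCATGCGC, the core of the NRF1 site, which also lies within a longer NRF1 word made of GC and this core, then CCGGAAG for ETS factors such as GABP, AAGATGGC for YY1 and TGACGTCA for CREB. Only the 120 bases before the start are printed, 5′ to 3′ on the strand of the gene, and capitals mark a match on either strand. Sdhd (chr9:50603850-50603969, minus strand) and Atp5h (chr11:115419920-115420039, minus strand) hold the ETS word in its reverse form. Uqcrfs1 (chr13:30545317-30545436, minus strand) holds the CREB word, and Cycs (chr6:50566570-50566689, minus strand) and Atp5g2 (chr15:102671048-102671167, minus strand) hold the NRF1 core, in Atp5g2 as part of the longer word.
Sdhd: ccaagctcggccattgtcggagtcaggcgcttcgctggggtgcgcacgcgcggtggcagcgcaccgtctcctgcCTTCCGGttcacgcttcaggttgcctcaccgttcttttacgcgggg
Uqcrfs1: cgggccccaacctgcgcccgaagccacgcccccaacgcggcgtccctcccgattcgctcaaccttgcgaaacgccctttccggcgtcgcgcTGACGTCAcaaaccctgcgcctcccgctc
Cycs: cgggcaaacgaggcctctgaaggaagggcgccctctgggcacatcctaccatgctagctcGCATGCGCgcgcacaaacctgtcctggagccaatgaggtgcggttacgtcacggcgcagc
Atp5g2: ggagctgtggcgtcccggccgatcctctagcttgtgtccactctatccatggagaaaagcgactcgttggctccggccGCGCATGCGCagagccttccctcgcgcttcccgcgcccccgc
Atp5h: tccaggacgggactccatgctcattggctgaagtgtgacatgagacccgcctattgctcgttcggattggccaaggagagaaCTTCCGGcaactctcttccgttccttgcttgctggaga

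The NRF1 core was found in 8 of the 35 members, or 22.9%, against 3.05% of all 27025 genes with a window. The longer NRF1 word was found in 4 members (11.4%, against 1.07%), namely Atp5g2, Atp5k, Cox6a1 and Uqcrc1. The ETS word was found in 12 members, or 34.3%, against 9.93% of all genes. The YY1 word was found in 3 members (8.57%, against 3.19%) and the CREB word in 2, Cycs and Uqcrfs1 (5.71%, against 2.03%). These shares describe letters in the windows and are not evidence of binding. The background holds every gene with a window, whether or not it was tested here. It was not matched to the members in level or base composition, so part of the gap may come from this.

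The comparison of the genotypes asks whether these genes differ in the fat of floxed mice with and without aP2-Cre. The deletion of aromatase itself could not be checked in these counts. Of the 46 members, 43 passed the low-count filter and were tested, among 12480 genes. In the knockouts 41 of the 43 had a lower fitted level and 2 a higher one, with a median log2 fold change of -0.16 and a range from -0.70 to 0.04. On library totals alone, without TMM scaling, 32 of the 43 had a lower fitted level and the median was -0.10, with that of all genes at 0.07; without control replicate 1 the median was also -0.10. Over all genes tested 50.3% had a lower fitted level, 49.7% a higher one, and the median was 0.0. The quasi-likelihood test of edgeR called 0 members at an adjusted p of 0.05; it called 0.168% of all genes, 0.0481% of them on the lower side. The smallest adjusted p of a member was 0.477. DESeq2 and limma-voom also called 0 members, with 9 and 8 members lower at an unadjusted p under 0.05. Over all genes DESeq2, run without the filter, called 53 and limma-voom 24, against 21 in the reported fit. Shares of all genes at an unadjusted p, or without overlap, were computed for the reported fit only. Counts of members from other fits therefore have no background.

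At an unadjusted p under 0.05, edgeR's test had 5 members on the lower side, or 5 of 43, against 2.87% of all genes, and 0 members on the higher side, against 3.52%; on either side it was 6.39% of all genes. The count on the lower side was 2 on library totals alone and ran from 2, without knockout replicate 3, to 11, without control replicate 4 or without knockout replicate 1. Calls over all genes moved too: 43 genes passed the adjusted threshold without control replicate 4 and 9 without knockout replicate 1, against 21 in the reported fit. The 5 were Cyc1, Sdhd, Cox5a, Uqcrc1 and Atp5g2. Abundant genes are measured more precisely, so the members were also set beside the 3681 tested genes with a mean of at least 50 CPM, a level chosen after the values were seen. Of those, 1901 had a lower fitted level, their median was -0.01, and 166 had an unadjusted p under 0.05 on the lower side. Among the 39 members above the same level, 37 had a lower fitted level, the median was -0.15, and 4 had such a p.

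The differences were small. The fitted level was within 10% of the control in 21 members, 10 to 20% below it in 17 and over 20% below it in 5. Standard errors of the log2 fold change ran from 0.102 to 0.484 with a median of 0.127, so a typical difference was about as large as its error. Libraries did not overlap between the genotypes, with every knockout library below every control library, in 4 members: Cyc1, Cox5a, Atp5g3 and Atp5f1. Only Cyc1 and Cox5a were separated with RLE factors or on library totals alone, while 10 members were without control replicate 4 and 8 without knockout replicate 1. Among all genes tested 1.72% were separated in this direction. Of the 3681 tested genes with a mean of at least 50 CPM, 101 were, and of the 39 members above that level, 4 were. In 22 of the 43 all 4 knockout libraries lay below the mean of the controls. The share of all genes for which this holds was not computed, so the count has no background to be set against.

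**Figure D1:**
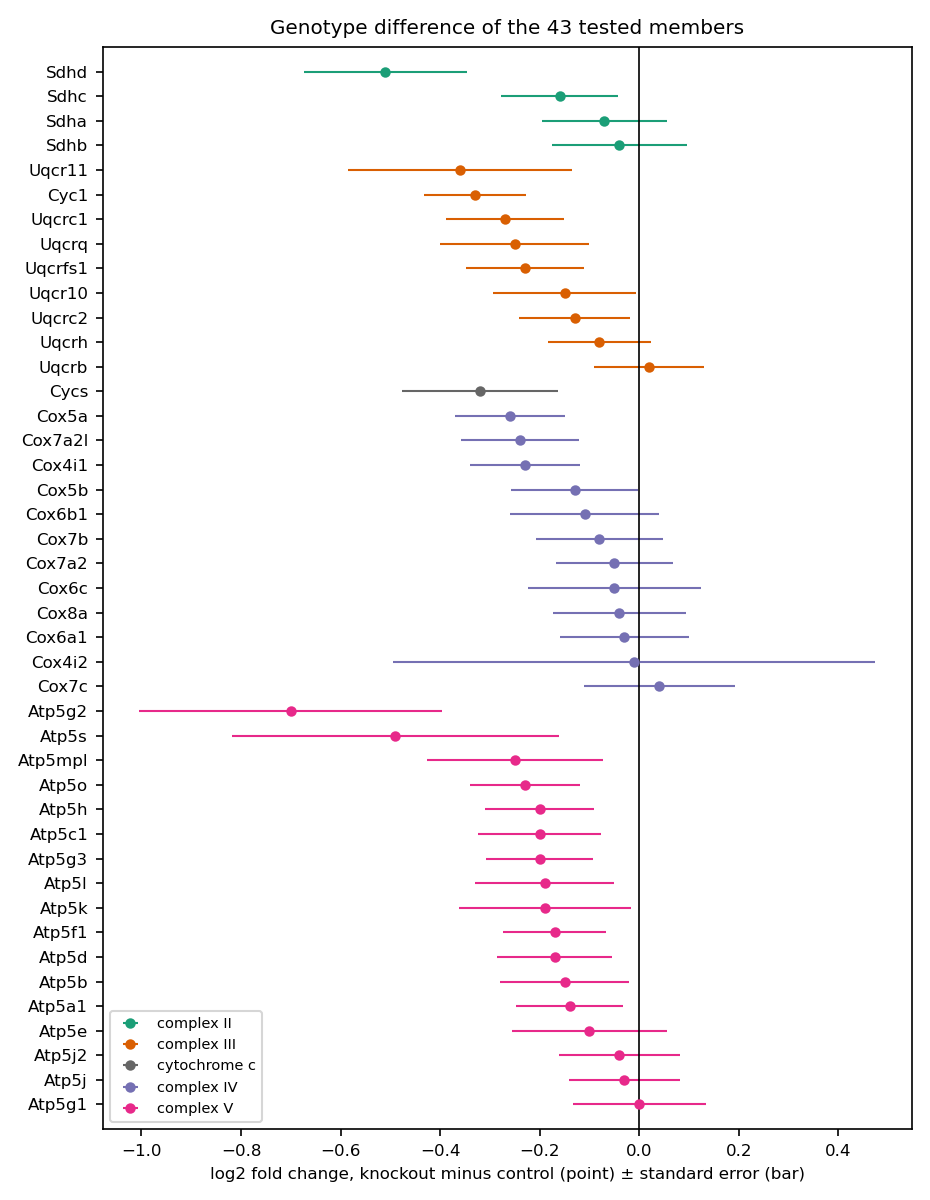
The horizontal axis is the log2 fold change of knockout over control, with points for the fitted value and bars for its standard error, and each row is a tested member, coloured by complex. Points of 41 of 43 members lie at or below 0 (Atp5g1 rounds to 0.0), and the lowest points are those of Atp5g2 at -0.70 and Sdhd at -0.51.

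Complex II is succinate dehydrogenase, which is also an enzyme of the citrate cycle. Its 4 genes were all tested, all 4 had a lower fitted level, and the median log2 fold change was -0.12. Sdhd (chromosome 9, 50596357 to 50603812, GRCm38), a membrane anchor that helps to bind ubiquinone, gave 107, 86.6, 100 and 57.1 CPM in the controls, replicates 1 to 4, and 58.2, 60.1, 64 and 65.3 CPM in the knockouts, in the same order. The knockout libraries lay close together, and control replicate 4 lay below all of them while the other 3 controls lay above. Sdhd had a log2 fold change of -0.51 (standard error 0.164, edgeR unadjusted p = 0.00725, adjusted p = 0.498). Without control replicate 4 it was -0.66 and the adjusted p was 0.0282, which made Sdhd the only member past the threshold in any fit that left out 1 library.

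The other genes of complex II differed less. Sdhc, the second membrane anchor, was at 233 ± 25.1 CPM in the controls and 209 ± 20.3 CPM in the knockouts (SD, n = 4), a log2 fold change of -0.16. Sdha, the flavoprotein that oxidises succinate, was at 282 ± 22.2 and 269 ± 40.7 CPM, and Sdhb, the iron-sulphur subunit, ran from 156 to 200 CPM in the controls and from 137 to 202 CPM in the knockouts. Sdha had a log2 fold change of -0.07 and Sdhb one of -0.04, and the libraries of all 3 genes overlapped between the genotypes. Summed over the 4 genes, control replicate 4 stood at 683.3 CPM against 795.3 to 812.7 CPM in the other controls, within the knockout range of 648.2 to 804.4 CPM.

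Complex III is the ubiquinol to cytochrome c reductase. Of its 9 genes, all tested, 8 had a lower fitted level and the median log2 fold change was -0.23, or -0.13 without control replicate 3. Cyc1 (chromosome 15, 76343523 to 76346260), the haem-bearing cytochrome that passes electrons to cytochrome c, gave 204, 210, 218 and 195 CPM in the controls and 172, 162, 153 and 170 CPM in the knockouts, replicates 1 to 4. Every control library lay above every knockout library. Cyc1 had a log2 fold change of -0.33 (standard error 0.102) and the smallest p of all members (edgeR unadjusted p = 0.00543, adjusted p = 0.477). Cyc1 stayed under an unadjusted p of 0.05 and without overlap in all 19 alternative fits, with log2 fold changes from -0.36 to -0.27.

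Uqcrc1 (chromosome 9, 108936633 to 108949623), a core subunit that faces the matrix, was at 189, 181, 209 and 161 CPM in the controls and at 166, 146, 135 and 168 CPM in the knockouts, replicates 1 to 4. Only control replicate 4 lay within the range of the knockouts. The log2 fold change was -0.27 (standard error 0.119, edgeR unadjusted p = 0.0397, adjusted p = 0.742). Uqcrfs1, the Rieske iron-sulphur protein, was at 205, 173, 160 and 202 CPM in the controls and at 177, 150, 145 and 161 CPM in the knockouts, with overlapping libraries and a log2 fold change of -0.23 (edgeR unadjusted p = 0.0771). The other core subunit, Uqcrc2, was at 232 ± 21.7 and 212 ± 17.7 CPM (SD, n = 4).

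The small subunits of complex III spread more. Uqcr11 had the most negative log2 fold change of the complex, -0.36, but its controls ran from 69.9 to 139 CPM and its knockouts from 59.5 to 99.1 CPM (edgeR unadjusted p = 0.138). Uqcrq was at -0.25, Uqcr10 at -0.15 and Uqcrh at -0.08. Uqcrb was at 145 ± 15.5 CPM in the controls and 147 ± 6.71 CPM in the knockouts (SD, n = 4), a log2 fold change of 0.02, and was the only gene of complex III on the higher side.

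Cytochrome c, encoded by Cycs (chromosome 6, 50562563 to 50566538), is the mobile carrier between complexes III and IV and also takes part in apoptosis. It gave 130, 97.9, 133 and 143 CPM in the controls and 115, 82.5, 84.4 and 122 CPM in the knockouts, replicates 1 to 4. Only knockout replicates 2 and 3 lay below all controls. The log2 fold change was -0.32 (standard error 0.156, edgeR unadjusted p = 0.0603, adjusted p = 0.809).

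Complex IV is cytochrome c oxidase. Of its 15 genes 12 were tested, 11 of them with a lower fitted level, and the median log2 fold change was -0.07; on library totals alone that median was 0.01, and it was 0.0 without control replicate 1, -0.02 without knockout replicate 2, -0.12 without control replicate 2 or 4 and -0.14 without knockout replicate 3. Cox5a (chromosome 9, 57521274 to 57532426), a subunit on the matrix side, was at 240, 227, 241 and 227 CPM in the controls and at 221, 206, 175 and 177 CPM in the knockouts, replicates 1 to 4. The groups did not overlap, although knockout replicate 1 came close to the lowest controls. Its log2 fold change was -0.26 (standard error 0.111, edgeR unadjusted p = 0.0321, adjusted p = 0.713).

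Cox4i1, the common form of a subunit through which ATP slows the enzyme, was at 962, 925, 930 and 800 CPM in the controls and at 844, 770, 709 and 753 CPM in the knockouts, replicates 1 to 4. Control replicate 4 was below knockout replicate 1, and the other controls were above all knockouts. The log2 fold change was -0.23 (edgeR unadjusted p = 0.0535, adjusted p = 0.784). Cox7a2l, a relative of Cox7a2 that joins complexes III and IV into supercomplexes, was at 151, 172, 183 and 204 CPM in the controls and at 149, 158, 159 and 135 CPM in the knockouts, with a log2 fold change of -0.24 (edgeR unadjusted p = 0.0653). Its libraries overlapped through control replicate 1.

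The remaining tested genes of complex IV lay closer to 0. Cox7a2 itself gave 174, 157, 177 and 146 CPM in the controls and 149, 140, 180 and 163 CPM in the knockouts, replicates 1 to 4. Cox6b1, which helps to join a pair of enzymes, gave 267, 224, 293 and 183 CPM in the controls and 228, 180, 250 and 240 CPM in the knockouts. Both genes overlapped widely between the genotypes. For Cox6a1 the controls were at 462, 328, 340 and 317 CPM and the knockouts at 361, 340, 343 and 372 CPM, and control replicate 1 stood apart from all the others. Cox5b was at a log2 fold change of -0.13, Cox7b at -0.08, Cox6c at -0.05, Cox8a at -0.04 and Cox7c, the only one on the higher side, at 0.04.

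Tissue-restricted forms of complex IV were rare in this fat. Cox4i2, a form known from lung and from low oxygen, had 13, 12, 3 and 7 counts in the controls and 7, 15, 8 and 9 counts in the knockouts, and its difference was not detectable at this depth (log2 fold change -0.01, standard error 0.484). Cox6b2, a form known from testis, had 5, 7, 14 and 2 counts in the controls and 5, 17, 13 and 11 in the knockouts and did not pass the filter. Cox6a2, the heart and muscle form, had 0, 0, 0 and 1 counts in the controls and 0, 1, 0 and 4 in the knockouts, and Cox7b2 had 0, 2, 0 and 0 and then 0, 1, 0 and 0. The knockout counts of Cox6a2 lay in replicates 2 and 4, where the muscle markers Myh4, Ckm, Tnnt3 and Atp2a1 were also highest. Whether they share a source was not tested. A count of 0 allows up to 3 counts, which is 0.984 to 1.92 CPM depending on the library; this covers counting error only.

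Complex V is the ATP synthase, a rotor in the membrane that drives a catalytic head. All 17 genes were tested, all 17 had a lower fitted level, which for Atp5g1 rounds to no difference, and the median log2 fold change was -0.19. In the head, Atp5a1 was at 584 ± 45.3 and 529 ± 28.1 CPM in control and knockout libraries, Atp5b, which holds the catalytic sites, at 826 ± 114 and 748 ± 79.5 CPM, and Atp5c1, the central shaft, at 434 ± 60.2 and 379 ± 34.1 CPM (SD, n = 4). The fitted log2 values were -0.14, -0.15 and -0.20 in that order. Atp5d and Atp5e, the other shaft subunits, were at -0.17 and -0.10. None of these 5 had an unadjusted p under 0.05.

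In the stalk that holds the head still, Atp5o was at 319, 276, 289 and 244 CPM in the controls and at 236, 233, 254 and 241 CPM in the knockouts, replicates 1 to 4. Control replicate 4 lay inside the range of the knockouts and the other controls above it. The log2 fold change was -0.23 (standard error 0.110, edgeR unadjusted p = 0.058, adjusted p = 0.803). Atp5h was at 351, 349, 388 and 383 CPM in the controls and at 361, 319, 303 and 293 CPM in the knockouts, where knockout replicate 1 was above 2 controls (log2 fold change -0.20, edgeR unadjusted p = 0.0811). Atp5f1 ran from 394 to 452 CPM in the controls and from 355 to 394 CPM in the knockouts, so that the highest knockout and the lowest control were nearly equal. Atp5j ran from 234 to 305 CPM in the controls and from 245 to 282 CPM in the knockouts.

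The rotor ring is made of a single protein, subunit c, which 3 genes encode with the same mature sequence behind different import signals. Atp5g3 was at 770, 721, 749 and 721 CPM in the controls and at 719, 596, 609 and 650 CPM in the knockouts, replicates 1 to 4, and the groups met without overlapping. Its log2 fold change was -0.20 (standard error 0.107, edgeR unadjusted p = 0.0797). Atp5g2 (chromosome 15, 102662864 to 102672352) was at 39.1, 79.3, 53.2 and 53.9 CPM in the controls and at 51.6, 33.1, 36.4 and 18.4 CPM in the knockouts. It had the most negative log2 fold change of all members, -0.70 (standard error 0.304, edgeR unadjusted p = 0.0435, adjusted p = 0.762), and control replicate 1 lay within the knockout range. A near-identical copy, the pseudogene Gm10175, held 70.8% of their joint counts, and for both together the log2 fold change was -0.20 (edgeR unadjusted p = 0.115), so the value of Atp5g2 alone depends on how reads were divided between them. Atp5g1 was at 105, 119, 119 and 113 CPM in the controls and at 89.1, 116, 111 and 139 CPM in the knockouts, a log2 fold change of 0.0.

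The subunit c genes were also compared within libraries, as ratios of the counts listed under each, chosen after the values were seen. Copies of Atp5g2 and Atp5g1 hold shares of their reads that differ between libraries, so these ratios also carry that division and are not a measure of the balance of the genes alone. The ratio of Atp5g1 to Atp5g2 was 2.13 ± 0.491 in the controls and 3.96 ± 2.52 in the knockouts (SD, n = 4, two-sided exact permutation p = 0.171, adjusted p = 0.412 over 6 ratios). The ratio of Atp5g2 to Atp5g3 was 0.0766 ± 0.0246 and 0.0539 ± 0.0184 (exact permutation p = 0.257, adjusted p = 0.412), and that of Atp5g1 to Atp5g3 was 0.154 ± 0.0122 and 0.179 ± 0.0388 (exact permutation p = 0.314, adjusted p = 0.412). None of the 3 passed an exact permutation p of 0.05, and 0.0286 is the smallest p that 4 libraries against 4 can give. Among complex IV pairs the ratio of Cox7a2l to Cox7a2 was 1.10 ± 0.221 and 0.962 ± 0.133 (exact permutation p = 0.343, adjusted p = 0.412). For the rare forms, Cox4i2 over Cox4i1 gave an exact permutation p of 0.686 and Cox6b2 over Cox6b1 one of 0.2.

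The remaining membrane and accessory genes of complex V had log2 fold changes of -0.25 for Atp5mpl, -0.19 for Atp5l, -0.19 for Atp5k and -0.04 for Atp5j2. Atp5s, the coupling factor, was at 12.8 ± 4.15 and 9.10 ± 2.91 CPM (SD, n = 4), and its log2 fold change was -0.49 (standard error 0.328). Atpif1, the inhibitor that stops the synthase from running backwards, is not matched by the rule and stood at 54.1 ± 6.73 and 52.4 ± 8.89 CPM (SD, n = 4, log2 fold change -0.03).

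**Figure D2:**
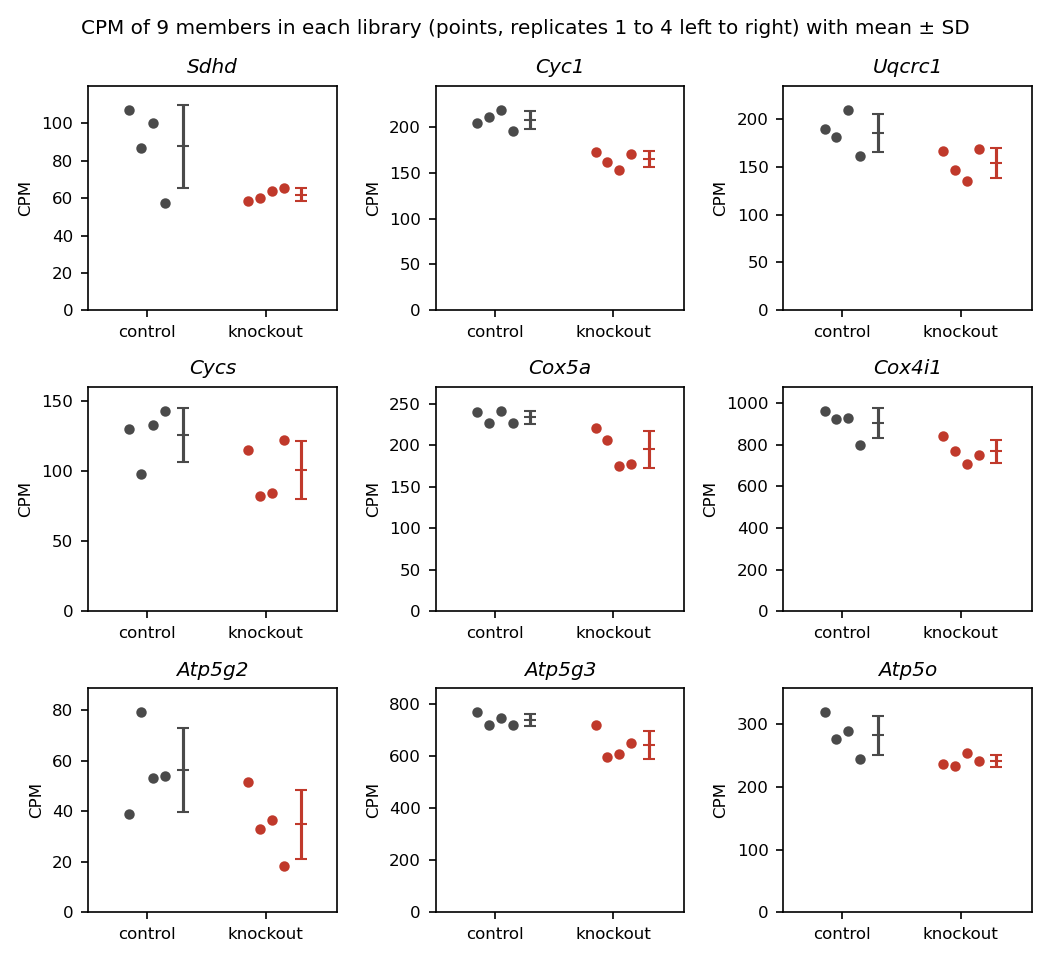
Each panel gives the CPM of 1 member, with 1 point per library, replicates 1 to 4 from left to right in each genotype, and the mean ± SD beside them; vertical axes start at 0. The groups do not overlap for Cyc1, Cox5a and Atp5g3, while for Sdhd control replicate 4, at 57.1 CPM, lies below all 4 knockout libraries.

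Respiratory genes have left many processed pseudogenes in the mouse genome, and the deposited table counts them as genes of their own. Table genes that had at least 50% of their 31-base words inside a member were called near-identical copies. There were 22 such copies of 13 members, and 17 of the copies had counts, for 11 members. The share of words ran from 0.515 for Gm11625 to 1 for Gm10175, so some copies are less alike than others. Most copies are annotated as processed pseudogenes, but Gm10053, a copy of Cycs, and Gm11273, a copy of Cox5b, are annotated as protein-coding. Over all libraries Gm10053 held 2470 counts and Cycs 2172.8. The division of reads between these members and their copies is uncertain.

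For several members most of the reads were listed under copies. Of the counts on Atp5g2 and its copy Gm10175 together, the copy held 65.3% ± 8.63 in the controls and 75.9% ± 7.02 in the knockouts (SD, n = 4). For Cycs and its copies the share on copies was 61.7% ± 2.93 and 63.2% ± 3.49, for Cox7c 68.1% ± 2.72 and 67.9% ± 3.40, and for Atp5l 41.9% ± 3.25 and 43.7% ± 1.79 (SD, n = 4). For Atp5g1 it was 1.49% ± 1.68 and 10.2% ± 7.25. The genotypes lay within 1 SD of each other for Cycs, Cox7c and Atp5l; the differences for the 2 genes of subunit c were not tested.

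Adding the copies to their members left the number of members past the adjusted threshold at 0. Atp5g2 together with Gm10175 was at 165, 177, 148 and 157 CPM in the controls and at 159, 136, 151 and 120 CPM in the knockouts, with overlapping groups. Atp5g1 with its copy moved from 0.0 to 0.12. Cycs with its copies had a log2 fold change of -0.27 (edgeR unadjusted p = 0.0478, adjusted p = 0.774), and Uqcrb moved from 0.02 to -0.02. Cyc1, Sdhd, Cox5a and Uqcrc1 have no such copy in the table.

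**Figure D3:**
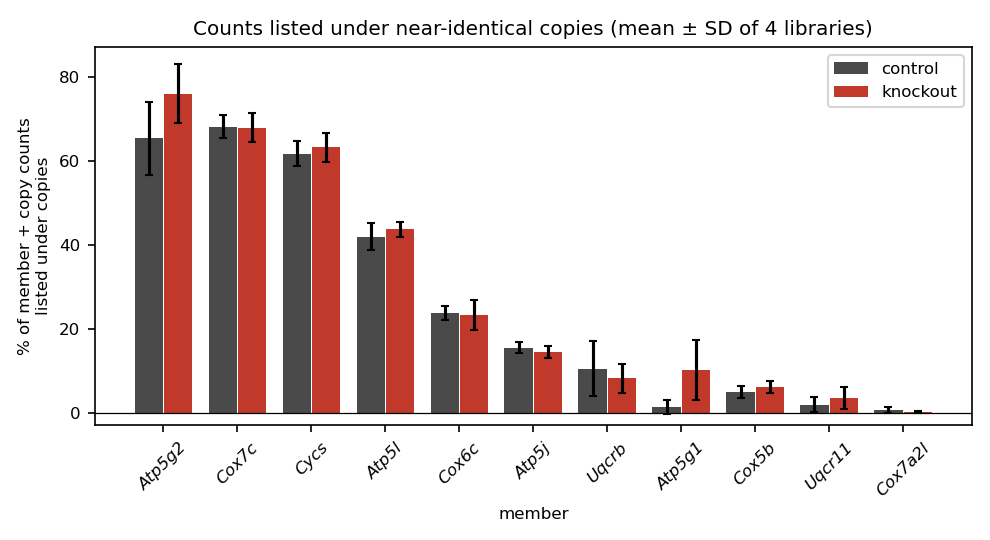
The vertical axis is the percentage of the counts on a member plus its near-identical copies that the table lists under the copies, as mean ± SD of 4 libraries per genotype, for the 11 members with a copy above 0. The bars of Atp5g2, Cox7c and Cycs exceed 60% in both genotypes.

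The libraries were also compared over the whole set. Relative to the control mean of each gene, the median deviation on the log2 scale was 0.12, -0.06, 0.08 and -0.15 in the controls and -0.10, -0.23, -0.15 and -0.19 in the knockouts, replicates 1 to 4. Control replicate 4 thus lay within the range of the knockouts. The number of the 43 tested members below their control mean was 8, 33, 10 and 36 in the controls and 35, 40, 30 and 38 in the knockouts. The summed level of all 46 members was 11500, 10280, 11130 and 9617 CPM in the controls and 10250, 8994, 9484 and 9427 CPM in the knockouts, a ratio of means of 0.897 with overlapping groups. Members took 1.03% ± 0.0437 of all counts in the controls and 0.966% ± 0.0359 in the knockouts (SD, n = 4).

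**Figure D4:**
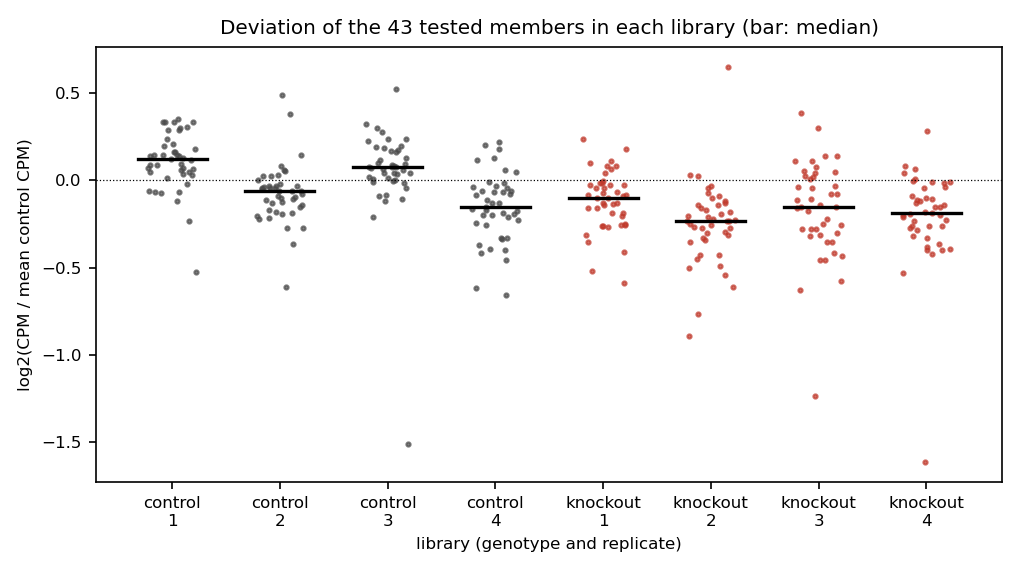
The vertical axis is log2 of the CPM over the mean control CPM of the same gene, with 1 point per tested member in each of the 8 libraries and a bar at the median. Medians of the knockouts run from -0.23 to -0.10 and those of the controls from -0.15 to 0.12, so control replicate 4 overlaps the knockouts.

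By complex, the ratio of the summed knockout to control level was 0.911 for complex II, 0.88 for complex III, 0.799 for Cycs, 0.914 for complex IV and 0.892 for complex V, and in each the libraries overlapped between the genotypes. Whether the complexes differ from each other was not tested. Across the 43 tested members the log2 fold change had a Spearman rho of -0.12 with the length of the longest annotated transcript and of 0.08 with the mean control level. The coefficient of variation among the controls ran from 3.17% to 43.8% and had a rho of -0.60 with the mean control level. These are descriptions across genes that share the same 8 libraries. Tested members with the NRF1 core had a median log2 fold change of -0.23 (8 members) against -0.15 in the 25 with a window and no match. Those with the ETS word had -0.11 (12 members) against -0.17 in 21. With the YY1 word the median was -0.04 (3 members) against -0.18 in 30, and with the CREB word -0.28 (2 members) against -0.15 in 31. Differences between these groups were not tested. The NRF1 core group includes Atp5g2 and Cycs, whose values depend on how reads were divided with their copies.

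The genes outside the rule that serve the same chain were taken from lists set up with the members. The nuclear complex I list was taken by symbol, as protein-coding genes starting with Nduf but not with Ndufaf. It was not checked gene by gene, so it may hold genes that are no subunit of complex I. Of its 38 genes, all tested, 33 had a lower fitted level and the median log2 fold change was -0.14. At an unadjusted p under 0.05, 2 were on the lower side and 0 on the higher side, and 0 passed the adjusted threshold. The 3 with the smallest p were Ndufa8 (-0.38), Ndufa12 (-0.27) and Ndufs4 (-0.27). The 37 assembly factors of complexes II to V, proteins that insert haem and copper or chaperone subunits, gave 19 of 35 tested genes with a lower fitted level and a median of -0.01. One of them, Coa6, a copper delivery factor of complex IV, had an unadjusted p under 0.05, at 29.3 ± 2.82 and 21.3 ± 1.16 CPM (SD, n = 4, edgeR adjusted p = 0.632), and Sdhaf4 (-0.38) and Cox18 (-0.46) followed.

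Of the 6 genes of complexes III, IV and V in mitochondrial DNA, 5 had a lower fitted level and the median log2 fold change was -0.39; 4 had an unadjusted p under 0.05 and libraries that did not overlap, and 0 passed the adjusted threshold. The 3 with the smallest p were mt-Co2 at -0.51 (edgeR adjusted p = 0.251), mt-Atp6 at -0.48 and mt-Co3 at -0.42. Summed over the 6, the controls ran from 59290 to 75950 CPM and the knockouts from 45710 to 53400 CPM, a ratio of means of 0.747 beside 0.897 for the nuclear members. Mitochondrially encoded genes in all took 11.3% ± 0.802 of the counts in the controls and 9.31% ± 0.583 in the knockouts (SD, n = 4).

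Of 13 regulators of mitochondrial biogenesis, all tested, 8 had a lower fitted level, the median was -0.06 and 0 had an unadjusted p under 0.05. The 3 with the smallest p were Polrmt (-0.58), the mitochondrial RNA polymerase, Ppargc1b (-0.38), a coactivator, and Tfam (-0.21), which packs and transcribes mitochondrial DNA. Nrf1 was at 0.949 times and Gabpa at 0.886 times the control. Of 12 markers of mitochondrial mass 11 had a lower fitted level, with a median of -0.08 and 0 at an unadjusted p under 0.05; Cs, citrate synthase, was at 260 ± 31.9 and 218 ± 15.4 CPM (SD, n = 4, log2 fold change -0.25), Vdac3 at -0.18 and Slc25a5 at -0.15.

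Markers of cell types were measured beside these values, and their part in the result was not tested. Of 15 macrophage markers 14 had a higher fitted level and 3, Ctss, Lyz2 and Cd68, passed the adjusted threshold; their sum was 1120 to 1343 CPM in the controls and 1723 to 2160 CPM in the knockouts. Of 15 adipocyte markers 12 had a lower fitted level with a median log2 fold change of -0.05 and 0 past the threshold, and their sum overlapped between the genotypes. Their 3 smallest p belonged to Retn (-0.65, edgeR adjusted p = 0.0731), Pparg (-0.23) and Plin4 (0.18). The summed level of the members per summed level of adipocyte markers was 0.129 ± 0.00678 in the controls and 0.129 ± 0.0164 in the knockouts (SD, n = 4). The marker sum, with a control mean of 82850 CPM, rests mostly on Car3 (26500 CPM), Fabp4 (18500 CPM), Cfd (13100 CPM) and Lpl (9630 CPM). This ratio therefore mainly follows those genes, while by gene the median was -0.05 for the markers and -0.16 for the members. Fewer cells of a type and less RNA per cell cannot be told apart in whole tissue. Brown and beige fat markers, which include the left-out Cox7a1 and Cox8b, summed to 20.96 to 49.34 CPM in the controls and 20.13 to 35.94 CPM in the knockouts over 7 genes, and skeletal muscle markers to 51.29 to 81.76 and 80.59 to 126.4 CPM over 9 genes. Cidea (-0.59) and Ppargc1a (-0.40) were the tested fat markers, and Acta1 (0.79) and Myl1 (0.11) the tested muscle markers. Some untested muscle markers were highest in knockout replicates 2 and 4. There Myh4 had 32.94 and 37.69 counts, Ckm 14 and 23, Tnnt3 13 and 31, and Atp2a1 17 and 21.55. The other libraries held at most 8 counts of any of them. Myh1, Myh2 and Mb had at most 4.448 counts in any library. The source of this muscle RNA was not tested. Of 7 endothelial markers 3 had a lower fitted level, and the smallest p of the list, on either side, belonged to Vwf (-0.69), Pecam1 (-0.25) and Tek (0.28). Among 7 fibroblast and progenitor markers 2 had a lower fitted level, and the smallest p belonged to Col1a1 (0.34), Pdgfra (-0.30) and Dpp4 (0.28). Of the lymphocyte markers 1 was tested, Cd3d (-0.49), and all these were above an adjusted p of 0.05 in edgeR's test.

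**Figure D5:**
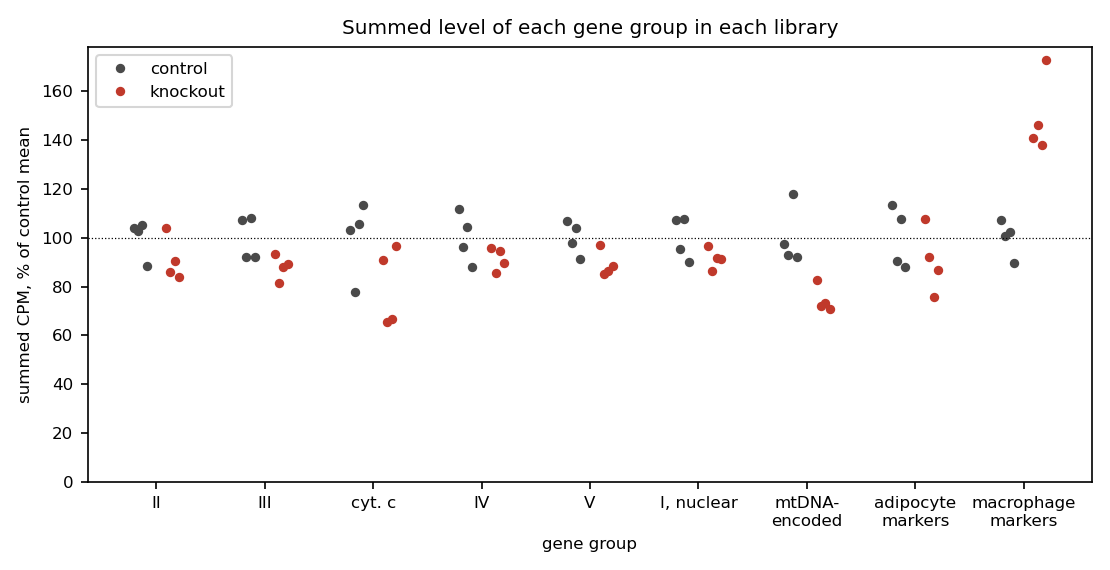
The vertical axis is the summed CPM of a gene group as a percentage of its control mean, with 1 point per library, for the members by complex, nuclear complex I, the mitochondrially encoded subunits, and adipocyte and macrophage markers. Control and knockout points overlap in each member complex, while they separate for the mitochondrially encoded subunits and for the macrophage markers.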

How the data were processed

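RNA from 8 samples, 4 per genotype by their titles, was sequenced by BRB-seq, a 3′-end method with oligo-dT priming, Tn5 tagmentation, 10 PCR cycles and a 51-base read, per the labels' protocols. The authors deposited estimated counts per gene without normalization; Salmon and GRCm38 are named in the submitters' processing notes, while their annotation, and whether molecular identifiers were counted, is not given in the sources used here. Identifiers were matched without version to GENCODE M21 (34652 of 34866). The counts were rounded and tested with edgeR 4.0.16 in R 4.3.3 (robust quasi-likelihood F test, genotype only, TMM factors, filterByExpr, Benjamini-Hochberg over 12480 genes, threshold 0.05), after a test on simulated data. CPM used the unrounded counts and TMM-scaled library sizes. A 3′ count is not divided by length, so levels are compared within a gene.

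Members given by library are the 12 tested with the smallest p, the smallest p in each complex and the sets of related forms; members not tested are given by counts. From each other list, genes past the threshold and the 3 smallest p are named without values by library. Alternatives were RLE, upper-quartile and no factors, no mitochondrially encoded genes, DESeq2 1.42.0, limma-voom 3.58.1, no filter, at least 80 counts in total, downsampling, the replicate block, added copies and leaving out each library. Ratios were tested in scipy 1.17.1. The members and lists were chosen with earlier results of these data known.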

Additional observations from a re-analysis of the deposited data

Results flagged for a closer look

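Dixon's rule for 4 values marks a highest or lowest value when its distance to the next one, divided by the range of the group, is over 0.829. It was applied to 46 groups of values of the members and marked 4, of which about 2.3 arise by chance. Control replicate 1 had 462 CPM of Cox6a1, and the other controls 317 to 340 CPM. Control replicate 3 had 1.35 CPM of Cox4i2, and the other controls 4.49 to 5.02 CPM. Knockout replicate 2 had 6.05 CPM of Cox4i2, and the other knockouts 2.95 to 3.21 CPM; Cox4i2 rests on 3 to 15 counts per library. Control replicate 4, the smallest library, had a summed complex II level of 683 CPM, and the other controls 795 to 813 CPM.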

How the results depend on the processing

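Under the 19 alternatives the median log2 fold change of the members kept its sign, as did those of complexes II, III and V and of Cycs; that of complex IV turned from -0.07 to 0.01 on library totals alone, where the median of all genes rose to 0.07 and 32 of 43 members had a lower fitted level. On library totals alone the medians were -0.10 for the members, -0.05 for complex II, -0.16 for complex III and -0.11 for complex V. Without 1 library they ran from -0.20 to -0.10 for the members (-0.10 without control replicate 1), -0.18 to -0.09 for complex II (-0.18 without knockout replicate 1), -0.28 to -0.13 for complex III (-0.13 without control replicate 3), -0.14 to 0.0 for complex IV, -0.22 to -0.14 for complex V and -0.42 to -0.23 for Cycs. In every setting other than library totals alone, 34 to 42 members had a lower fitted level, of the 42 to 46 members fitted there. The 34 came without control replicate 1 and the 42 with DESeq2. No member passed the adjusted threshold except Sdhd without control replicate 4, so the number ran from 0 to 1 when 1 library was left out. The 5 members lower at an unadjusted p under 0.05 became 8 with upper-quartile factors, 2 with library totals alone, 9 with DESeq2 and 8 with limma-voom, and 2 to 11 without 1 library, with 11 both without control replicate 4 and without knockout replicate 1, 3 without control replicate 3 or knockout replicate 2, and 2 without knockout replicate 3. The 4 members that did not overlap became 2 with RLE factors, library totals alone, no filter, DESeq2 and downsampling, and 3 to 10 without 1 library (10 without control replicate 4, 8 without knockout replicate 1). The cause of these changes was not tested, and shares over all genes were not computed for these settings. In all, 14 members changed side in at least 1 setting, none of them over 0.1 in size on the log2 scale in the reported fit; 9 did so on library totals alone, 3 with downsampling and 7 without control replicate 1. Atp5g1, at 0.0, reached 0.12 with its copy added and 0.10 without knockout replicate 1. Among the members given by library the reversals were, on library totals alone, Cox7a2 (0.02), Cox6a1 (0.04) and Cox4i2 (0.05), with limma-voom Cox4i2 (0.17), with downsampling Cox7a2 (0.09), and without 1 library Cox6a1 (-0.09 to 0.11) and Cox4i2 (-0.32 to 0.15). With the replicate block 40 members had a lower fitted level, 0 passed and Cox4i2 was at 0.03. Deviations of same-numbered libraries correlated at 0.25, -0.06, -0.01 and -0.24, and only control replicate 1 correlated best with the knockout of its own number. With 4 libraries per group this check cannot exclude a pairing, and the labels state none. Depth limits Cox4i2, Cox6b2, Cox6a2 and Cox7b2.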
